A study of Mus musculus with 10 samples.

Results

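Claudins are small membrane proteins that seal the space between neighbouring epithelial cells at the tight junction. The 9 claudin genes described here are Cldn1, Cldn2, Cldn3, Cldn4, Cldn7, Cldn8, Cldn12, Cldn15 and Cldn23, taken by symbol from 22180 genes measured on whole-transcript arrays of mouse jejunum. Each of the 9 had 1 probe set. The 9 were chosen by name with the log2 differences between knockouts and controls on these same arrays in view, so those differences are given for them as a description, without a test. A further 22 claudin genes on the arrays were tested.

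The knockout group comprised 5 samples from Pcyt1aLoxP/LoxP;VilCreERT2 female mice, numbered 1 to 5 in the titles. The control group comprised 5 samples from Pcyt1aLoxP/LoxP female mice without the Cre transgene, numbered 6 to 10. Pcyt1a encodes the rate-limiting enzyme of phosphatidylcholine synthesis from choline, and VilCreERT2 is a Cre recombinase that tamoxifen switches on in villin-expressing epithelium, so other cells of the tissue keep the gene. All mice were 10 to 12 weeks old, were given 5 days of tamoxifen and 4 days of high fat feeding, and went without food for a night before 3 cm of the middle small intestine was frozen. A meal after the fast is mentioned by the series text but not by the sample labels, which give a fasted state, and the source labels of the controls describe the same loss of synthesis as those of the knockouts. The titles and genotypes were followed. Pcyt1a itself had a mean log2 intensity of 7.46 ± 0.25 in knockouts and 9.39 ± 0.17 in controls (SD over n = 5 arrays each), a log2 difference of -1.93 (SE 0.13, limma adjusted p = 9.577e-05), and its groups did not overlap. Genes of gut epithelium were present on every array: a mean over 16 such genes, Epcam, Cdh1 and Vil1 among them, lay between 10.11 and 10.48 in knockouts and between 10.10 and 10.42 in controls. Knockout 2 and control 6 stood apart from their groups in Paneth cell genes, with a mean over 13 of them that lay 1.58 and 1.29 log2 units below the group mean, and control 7 lay 2.45 above its group in a mean over 12 smooth muscle genes.

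Each claudin gives the junction its own permeability. Claudin-2 and claudin-15 form paracellular pores for sodium and other small cations, and the sodium they return to the lumen serves sodium-coupled uptake of sugars and amino acids. Claudin-1, claudin-3, claudin-4 and claudin-8 tighten the junction, claudin-7 lies largely along the basolateral membrane of intestinal cells, and claudin-12 has been linked with claudin-2 to paracellular calcium transport. In the gut, claudin-2 is known as a claudin of crypt cells, while claudin-15 is found along crypt and villus.

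By RefSeq annotation (GRCm38.p6), Cldn2 lies on chromosome X, Cldn7 on chromosome 11 and Cldn23 on chromosome 8. Cldn12, Cldn15, Cldn3 and Cldn4 lie on chromosome 5, where Cldn3 and Cldn4 are neighbours, and Cldn1 and Cldn8 lie on chromosome 16. The 250 bases before the gene start are shown for Cldn2 and Cldn4, the claudins with the largest differences between the groups, and for Cldn15, the other pore-forming claudin. All 3 are written 5′ to 3′ on the gene's strand, from RefSeq sequence of GRCm38.p6: chrX:139800558-139800807 (plus strand) for Cldn2, chr5:136967619-136967868 (plus strand) for Cldn15 and chr5:134946935-134947184 (minus strand) for Cldn4. Capitals mark matches, on either strand, to 6 motifs chosen after the sequences were seen.
Cldn2: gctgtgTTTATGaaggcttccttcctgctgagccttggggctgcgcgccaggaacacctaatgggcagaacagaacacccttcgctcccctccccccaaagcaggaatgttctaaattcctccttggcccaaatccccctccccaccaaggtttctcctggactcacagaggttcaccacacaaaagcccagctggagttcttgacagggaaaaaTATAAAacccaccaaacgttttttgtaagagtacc
Cldn15: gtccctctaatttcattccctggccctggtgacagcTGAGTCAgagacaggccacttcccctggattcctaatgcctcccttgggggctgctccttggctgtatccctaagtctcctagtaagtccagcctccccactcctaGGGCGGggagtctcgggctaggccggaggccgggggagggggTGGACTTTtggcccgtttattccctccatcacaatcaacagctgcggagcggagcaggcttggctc
Cldn4: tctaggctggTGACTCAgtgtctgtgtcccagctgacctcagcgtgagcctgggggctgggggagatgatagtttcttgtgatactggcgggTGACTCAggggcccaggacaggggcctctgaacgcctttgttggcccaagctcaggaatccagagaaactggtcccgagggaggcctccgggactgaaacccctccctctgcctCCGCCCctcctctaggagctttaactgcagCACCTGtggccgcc
The Cldn2 window held TATAAA, the TATA box, starting 35 bases before the gene start and TTTATG, a CDX-type motif, at 244 bases. The Cldn15 window held TGAGTCA, a match to the AP-1 motif TGANTCA, at 214 bases, the GC box GGGCGG at 108 bases and TGGACTTT, the reverse complement of the HNF4-type motif AAAGTCCA, at 66 bases. The Cldn4 window held the AP-1 motif at 240 and 158 bases, the GC box on the other strand at 44 bases and CACCTG, an E-box of the Snail type, at 14 bases. No matches overlapped each other in these 3 windows. Of all 32851 annotated windows of this length, 12.4% held TATAAA, 10.8% TTTATG, 1.01% AAAGTCCA, 6.75% TGANTCA, 32.7% GGGCGG and 17.2% CACCTG. A match describes the letters only, and binding was not measured.

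Of the 2 pore-forming claudins, Cldn2 was higher in the knockouts on every array and Cldn15 was not. Cldn2 had log2 intensities of 6.09, 5.36, 6.02, 6.04 and 5.81 on knockout arrays 1 to 5, against 4.48, 5.14, 4.86, 4.95 and 4.62 on control arrays 6 to 10. Knockout 2 was the lowest knockout and control 7 the highest control, and the groups did not overlap. The mean was 5.86 ± 0.30 in knockouts and 4.81 ± 0.26 in controls (SD over n = 5 arrays each), a log2 difference of 1.05 (SE 0.16), or 2.08-fold (95% interval 1.63 to 2.65). It was 1.18 (SE 0.14) without knockout 2 and 0.97 (SE 0.16) without control 6. Array medians over all genes lay between 5.77 and 5.89, so Cldn2 was read below the median of all genes in controls and near it in knockouts.

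Cldn15 had log2 intensities of 10.78, 11.22, 10.73, 11.03 and 10.92 on the knockout arrays, against 11.39, 10.97, 11.2, 11.09 and 10.94 on the control arrays. The groups overlapped over most of their range. Its mean was 10.94 ± 0.20 in knockouts and 11.12 ± 0.18 in controls (SD over n = 5 arrays each), a log2 difference of -0.18 (SE 0.12, 95% interval -0.44 to 0.08). On knockout 2, the array lowest in Cldn2 among the knockouts, Cldn15 was the highest of its group, and the same held for control 6 among the controls.

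Cldn12, the calcium-linked claudin, was at 7.21, 7.22, 7.07, 7.11 and 7.21 on the knockout arrays, against 6.96, 6.63, 7.18, 7.16 and 6.93 on the control arrays. The knockouts lay close together, with an SD of 0.07 against 0.22 in controls, and the groups overlapped. The log2 difference was 0.19 (SE 0.11, 95% interval -0.04 to 0.43).

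Among the sealing claudins, Cldn4 had the largest difference. It read 8.98, 9.29, 9, 8.74 and 9.28 on the knockout arrays, against 10.25, 9.3, 9.42, 9.69 and 9.21 on the control arrays. All knockouts but 2 and 5 lay below every control, and control 10 lay below those 2. The mean was 9.06 ± 0.23 in knockouts and 9.57 ± 0.42 in controls (SD over n = 5 arrays each), a log2 difference of -0.52 (SE 0.19, 95% interval -0.92 to -0.11), or 0.699 of the control level. Control 6 was the highest array, and without it the difference was -0.35 (SE 0.14).

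Cldn3, the neighbour of Cldn4 on chromosome 5, lay between 9.88 and 10.11 in knockouts and between 9.74 and 10.28 in controls, with a log2 difference of -0.06 (SE 0.11). All knockout values thus lay within the range of the controls. Cldn23, a barrier claudin of surface epithelium, lay between 7.1 and 7.37 in knockouts and between 7.14 and 7.76 in controls, with a log2 difference of -0.24 (SE 0.13, 95% interval -0.52 to 0.03). Controls 6 and 9 were the high arrays for both genes.

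The other sealing claudins and Cldn7 differed little between the groups relative to their spread. Cldn1 had a mean log2 intensity of 4.94 ± 0.17 in knockouts and 4.96 ± 0.19 in controls (SD over n = 5 arrays each), a difference of -0.02 (SE 0.11). Cldn8 was at 5.02 ± 0.31 in knockouts and 4.92 ± 0.49 in controls (SD over n = 5 arrays each), a difference of 0.10 (SE 0.22), and was the gene with the widest interval, from -0.39 to 0.58. Cldn7 was at 10.18 ± 0.10 in knockouts and 10.27 ± 0.19 in controls (SD over n = 5 arrays each), a difference of -0.09 (SE 0.10). Cldn1 and Cldn8 read below the array medians over all genes (5.77 to 5.89), and Cldn7 above them.

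**Figure D1:**
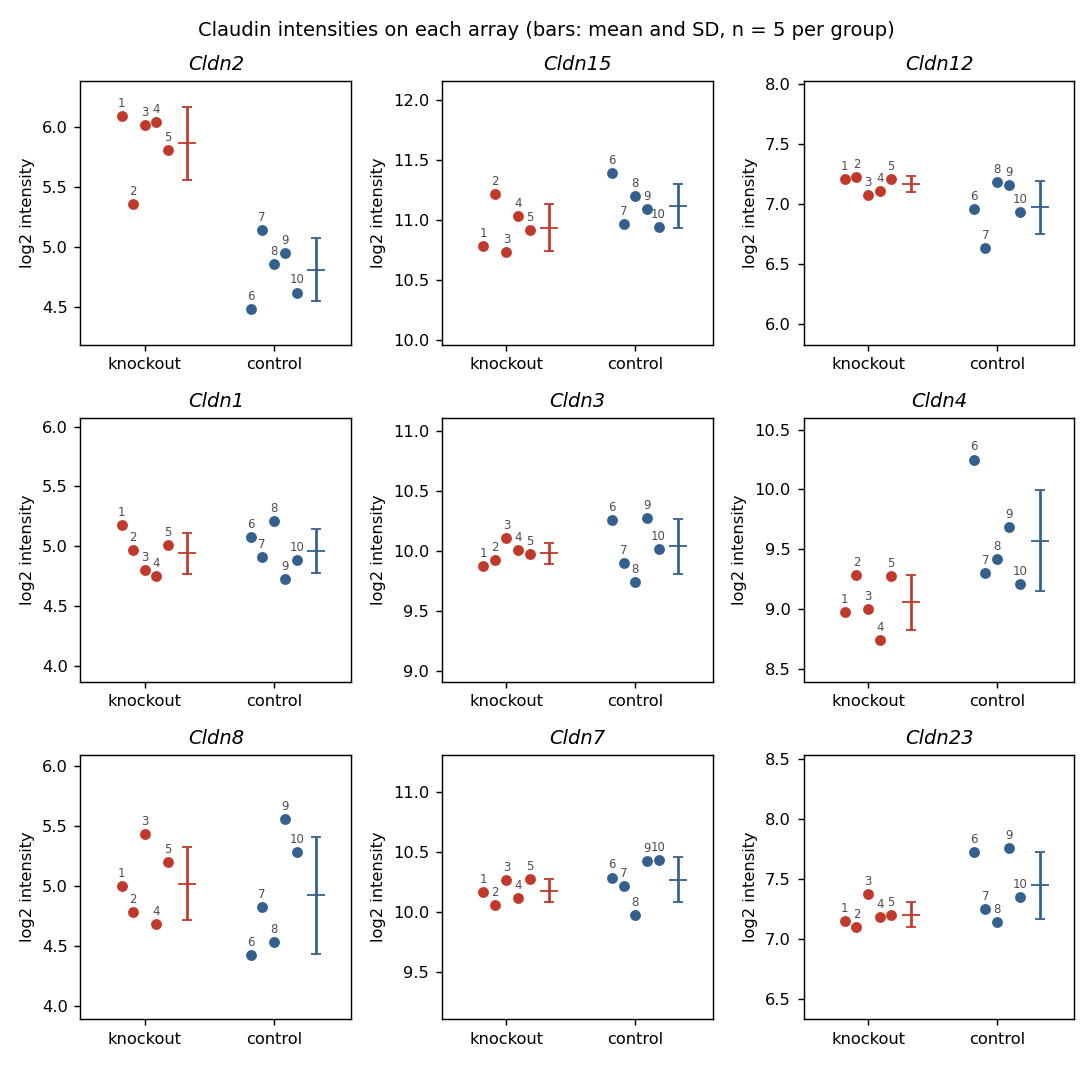
Log2 intensity of each claudin on each array, with knockouts at the left and controls at the right of every panel. Points are arrays with their title numbers, bars are the mean and SD of 5 arrays, and all panels span the same number of log2 units. Cldn2 is the panel whose groups do not overlap, and its lowest knockout (array 2, 5.36) lies above its highest control (array 7, 5.14).

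Across the 9 genes, 3 differences were positive and 6 negative, with a median of -0.06 against -0.01 over all genes tested. Of the 9, 0 passed an adjusted p of 0.05 in the limma fit over all genes, which called 0.0271% of the genes (0.00451% higher and 0.0225% lower in knockouts). Without knockout 2 the fit called 452 genes, against 6 with all arrays, and Cldn2 was among them. Cldn2 was also among 4 genes called with array weights, 4 with the smooth muscle score as a covariate and 292 with the Paneth score. Cldn2 was called too with the crypt stem cell score, a covariate chosen after the data were seen and related to Cldn2 at r = 0.94 within the groups. The fits with a covariate called between 1 and 292 of the 22180 genes. The groups did not overlap for 1 of the 9, Cldn2, against 2.60% of all genes and 1.64% in that direction. These counts describe genes picked with the comparison known, and nothing is read from them. In a piece of tissue, fewer cells of a type and less RNA per cell cannot be told apart.

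The 22 other claudins were tested in the same fit, and 0 were called. Apart from Cldn11 (6.19) and Cldn19 (6.06), their mean log2 intensities lay below the array medians of 5.77 to 5.89. At an unadjusted p under 0.05 there were 3, against 13.9% of all genes (8.29% higher and 5.56% lower in knockouts): Cldn20 at -0.45 (SE 0.18, limma adjusted p = 0.3046), Cldn34d at -0.45 (SE 0.17, limma adjusted p = 0.2601) and Cldn34-ps, a pseudogene, at 0.27 (SE 0.12, limma adjusted p = 0.3419). The groups overlapped for all 22. Their median log2 difference was -0.03.

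Cldn5, the claudin of blood vessel endothelium, was at 4.66 ± 0.17 in knockouts and 4.59 ± 0.17 in controls (SD over n = 5 arrays each), below the array medians. A mean over 12 endothelial markers was 6.51 ± 0.28 in knockouts and 6.04 ± 0.36 in controls. Cldn18, known from stomach, was at -0.03 (SE 0.11), Cldn10 at 0.02 (SE 0.08), and Cldn14, Cldn16 and Cldn19, known from kidney, at -0.16, 0.09 and 0.01. Cldn6 was at -0.20, Cldn9 at 0.002, Cldn11 at 0.04, Cldn13 at -0.03, Cldn17 at -0.03, Cldn22 at -0.05 and Cldn24 at -0.19. The remaining copies of the Cldn34 family, Cldn34a, Cldn34b1, Cldn34b2, Cldn34b3, Cldn34b4 and Cldn34c4, lay between -0.25 and 0.05. The Cldn34 genes resemble each other, and probe sets may not tell them apart.

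**Figure D2:**
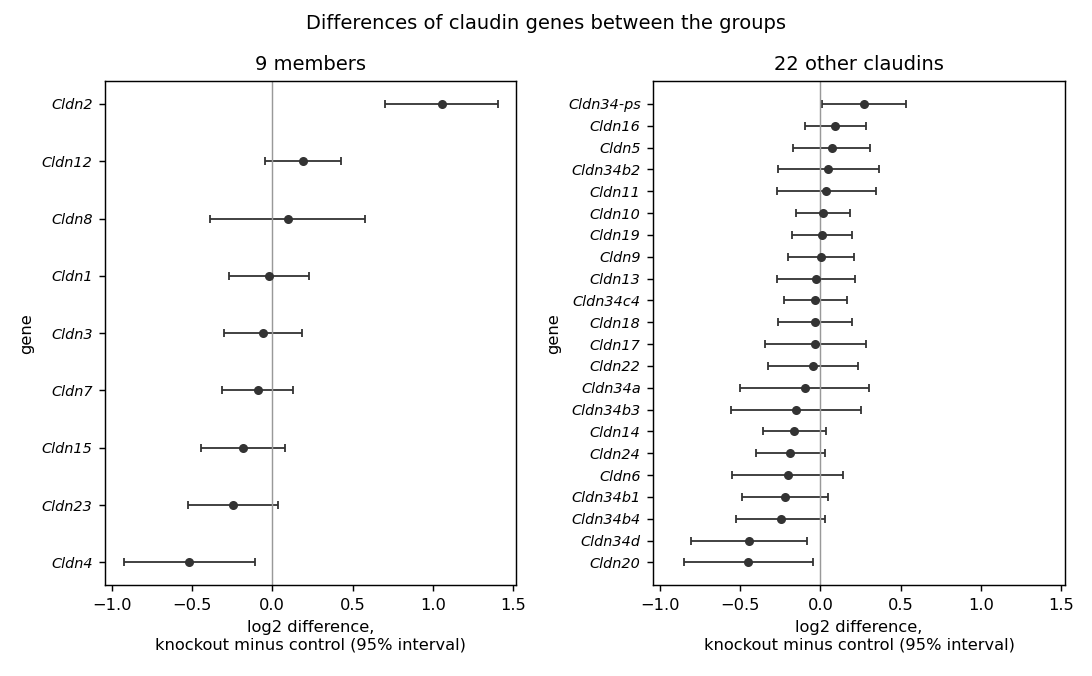
Log2 difference of each claudin gene, knockout minus control, with its 95% interval from limma. The 9 chosen genes are at the left and the 22 other claudins at the right, on the same axis. Cldn2 (1.05) and Cldn4 (-0.52) lie farthest out on either side, and the other claudins lie between -0.45 and 0.27.

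Within each group, arrays differed in their cell type marker scores, and the claudins were compared with these scores. For this, each value was set relative to the mean of its own group, so that the difference between knockouts and controls does not enter. Marker lists of 16 cell types were scored as mean log2 intensity. Over the 10 arrays, 144 relations of the 9 claudins with these scores were computed, and exact permutation tests within the groups, added after the data were seen, were adjusted over the 144. By Pearson correlation 4 passed an adjusted p of 0.05, and by Spearman correlation 1. The points share their array, its mix of tissue and the place its piece was cut from, so these are relations between readings of the same RNA.

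Cldn2 followed the crypt stem cell score, a list of 19 genes with Lgr5, Olfm4, Ascl2 and Cd44 among them. Pearson's r was 0.94 over 10 arrays (exact permutation p = 0.0007639, adjusted 0.0275) and Spearman's rho was 0.87 (exact permutation p = 0.002083, adjusted 0.1087). Without control 6 and knockout 2, the arrays farthest from the median score, r was 0.86. It was 0.97 among knockouts alone and 0.93 among controls alone. With the cell cycle score r was 0.87 (exact permutation p = 0.003889, adjusted 0.06727; rho 0.82, exact permutation p = 0.005347, adjusted 0.1087), and this relation fell to r = 0.46 without the same arrays. That with the Paneth cell score, 0.78, fell to 0.26, so both rest largely on those 2 arrays. With the villus tip score r was -0.81, and -0.44 without them.

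Cldn15 followed the enterocyte score, with Pearson's r of 0.96 (exact permutation p = 0.0005556, adjusted 0.02667; rho 0.89, exact permutation p = 0.004236, adjusted 0.1087). It ran against the Paneth cell score, with r of -0.95 (exact permutation p = 0.0005556, adjusted 0.02667; rho -0.90, exact permutation p = 0.002778, adjusted 0.1087). Without knockout 2 and control 6 these values were 0.89 and -0.86. Cldn2 and Cldn15, the pore-forming pair, had an r of -0.69 with each other (exact permutation p = 0.04437, adjusted 0.3896 over the 36 pairs of claudins). Without the same arrays it was -0.05, so it rests on them. Cldn15 lay above its group mean only on knockouts 2 and 4 and controls 6 and 8. The protease gene Tmprss15, named after its values were seen, split the arrays alike. It read 6.2 and 6.55 on those knockouts (others 4.24 to 4.57), and 9.09 and 7.61 on those controls (others 4.28 to 5.1). With 10 calcium absorption genes Cldn15 had an r of 0.89. The part of the place along the gut in these relations was not tested.

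Cldn4 was related most closely to the villus tip score, with Pearson's r of 0.86 (exact permutation p = 0.003403, adjusted 0.06727; rho 0.76, exact permutation p = 0.02472, adjusted 0.19), and r was 0.73 without control 6 and knockout 2. This relation did not pass the adjustment.

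Cldn8 followed the goblet cell score, with Pearson's r of 0.90 (exact permutation p = 0.0003472, adjusted 0.02667) and Spearman's rho of 0.85 (exact permutation p = 0.0002778, adjusted 0.04). Without knockouts 2 and 4 this r was 0.98. This relation was not computed again under the alternative processing settings. Cldn8 read below the array medians of 5.77 to 5.89, at a mean log2 intensity of 4.97, and no detection values were used. Its r with the pan-epithelium score was 0.89 and that of Cldn7 was 0.83, and neither passed after adjustment (both 0.06727 by exact permutation). Without control 9 and knockout 2 these were 0.90 and 0.78.

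Among the 36 pairs of claudins, r lay between -0.69 and 0.97, with a median of 0.09. By Pearson correlation 1 pair passed after adjustment, Cldn3 with Cldn23, at r of 0.97 (exact permutation p = 0.0006944, adjusted 0.025; rho 0.95, exact permutation p = 0.001944, adjusted 0.07). Without controls 9 and 6 that r was 0.91. Cldn3 and its chromosomal neighbour Cldn4 had an r of 0.52 (exact permutation p = 0.2523).

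**Figure D3:**
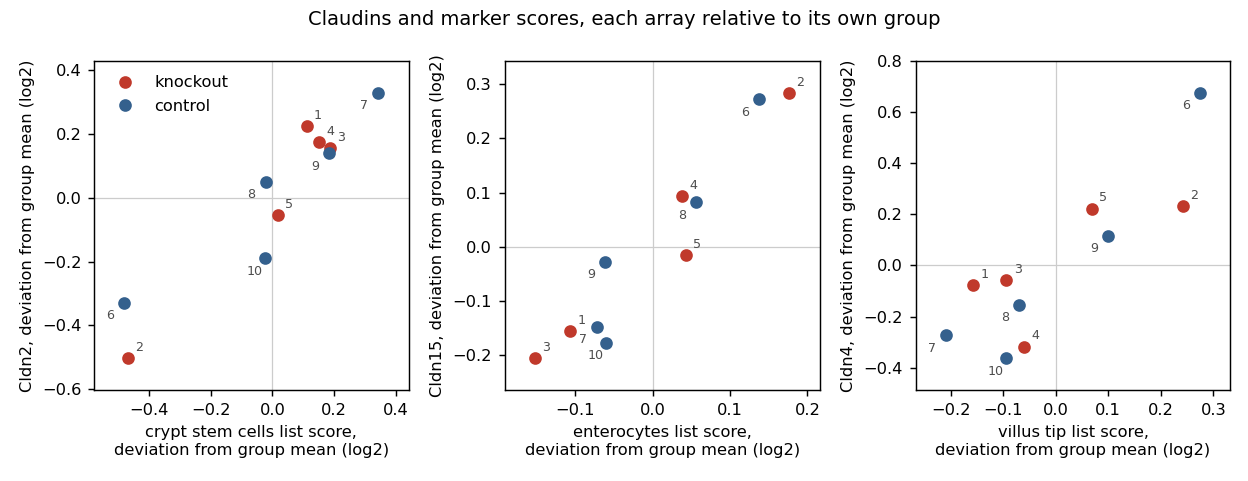
Deviation of Cldn2, Cldn15 and Cldn4 from the mean of their group, on the vertical axis, against that of the crypt stem cell, enterocyte and villus tip scores, on the horizontal axis, all in log2 units. Points are arrays with their title numbers. Knockout 2 and control 6 lie at the low end for Cldn2 and at the high end for Cldn15, and r is 0.94, 0.96 and 0.86 from left to right.

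**Figure D4:**
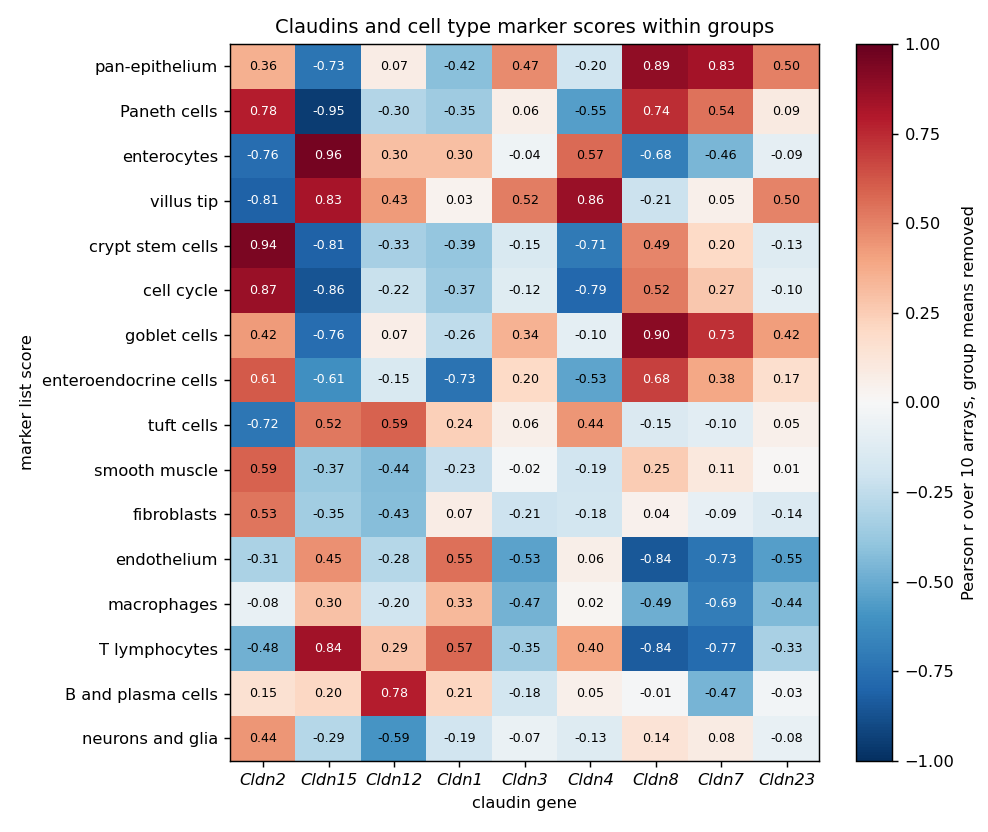
Pearson r over 10 arrays, with group means removed, between each claudin (columns) and each cell type marker score (rows). Cldn2 is positive with crypt stem cells (0.94) and negative with villus tip (-0.81), Cldn15 has the opposite signs (-0.81 and 0.83, or -0.28 and 0.47 without control 6 and knockout 2), and Cldn8 and Cldn7 are positive with pan-epithelium (0.89 and 0.83).

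The genes whose readings were most like those of a claudin, by the same group-centred r among 10336 genes with a mean log2 intensity of at least 6, also differed from claudin to claudin. For Cldn2 they were Bcap29, Anp32b and Acpp (r = 0.99 each), and for Cldn15 they were Rhoc, Vdr, the vitamin D receptor (0.98 each), and Rnf19b (0.97). For Cldn12 they were Rspry1 (0.95), Brip1os and Ccnc (0.94 each), and for Cldn1 they were Kitl (0.92), Ccnl2 (0.91) and Gm6548 (0.90). Ap2s1 led for Cldn3 (0.97), ahead of Cldn23 itself (0.97) and Tmem120a (0.95), and Cldn23 had Cldn3, Ap2s1 and Eif4e2 (0.95 each for the last pair). Mir1938, Gch1 (0.94 each) and Fam102a (0.93) led for Cldn4, Ccny (0.97), Xk and Klhl17 (0.96 each) for Cldn7, and Ddah1, P2ry4 and Ocm (0.96 each) for Cldn8. These are the highest of many values, so no p is given.

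Between the groups, scores were not tested and are given as values beside the claudins. Over all genes, 13.9% had an unadjusted p under 0.05 (8.29% higher and 5.56% lower in knockouts). In knockouts the cell cycle score was 7.98 ± 0.41, against 7.19 ± 0.34 in controls (SD over n = 5 arrays each), and all 21 of its genes had positive differences, of which 0 were called by limma, although all 21 had an unadjusted p under 0.05. It ranged from 7.31 to 8.28 in knockouts and from 6.59 to 7.39 in controls, so the groups overlapped. The crypt stem cell score was 7.58 ± 0.27 in knockouts and 7.28 ± 0.31 in controls, and the groups overlapped (7.11 to 7.76 in knockouts, 6.80 to 7.63 in controls). Of its 19 genes, 16 were positive, 0 were called and 6 had an unadjusted p under 0.05. Its negative genes, named after values were seen, were Lgr5 at -0.42 (SE 0.19), Sp5 at -0.28 (SE 0.15) and Rnf43 at -0.17 (SE 0.11). The villus tip score was 10.34 ± 0.16 in knockouts and 10.49 ± 0.19 in controls, with 9 of 12 genes negative, and 0 called or at an unadjusted p under 0.05, and here too the groups overlapped (10.18 to 10.58 in knockouts, 10.28 to 10.77 in controls).

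The tuft cell score lay between 5.93 and 6.07 in knockouts and between 6.23 and 6.42 in controls, without overlap. All 13 of its genes had negative differences, of which 0 were called by limma. An unadjusted p under 0.05 was reached by 8, against 5.56% of all genes in that direction. Within the groups, Cldn2 had an r of -0.72 with this score (exact permutation p = 0.0259, adjusted 0.1576), and -0.57 without control 7 and knockout 1. The enteroendocrine score was 6.79 ± 0.13 in knockouts and 7.09 ± 0.12 in controls, with 15 of 19 genes negative and 1 called, Sst, the somatostatin gene, at -1.20 (SE 0.10, limma adjusted p = 0.0003483). The r of Cldn2 with it was 0.61, and 0.06 without control 6 and knockout 2. Sst was named after its values were seen.

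Fits with a marker score as a covariate gave several sizes of difference. For Cldn2 the log2 difference was 0.98 (SE 0.12) with the Paneth cell score and 1.12 (SE 0.14) with the smooth muscle score, against 1.05 without a covariate. For Cldn4 it was -0.45 (SE 0.17) and -0.54 (SE 0.19) with these scores, against -0.52 without. The other covariates were chosen after the data were seen. With them, the difference of Cldn2 was 0.90 (SE 0.13) with the enterocyte score, 0.85 (SE 0.13) with the villus tip score, 0.78 (SE 0.09) with the crypt stem cell score and 0.54 (SE 0.15) with the cell cycle score. That of Cldn4 was -0.38 (SE 0.18) with the enterocyte score, -0.26 (SE 0.13) with the villus tip score, -0.27 (SE 0.17) with the crypt stem cell score and 0.04 (SE 0.20) with the cell cycle score. Cldn15 was at 0.16 with the cell cycle score, against -0.18 without. The cell cycle score itself differed between the groups (7.98 ± 0.41 in knockouts, 7.19 ± 0.34 in controls). As a covariate it therefore also takes up part of the contrast between them. The part of tissue makeup in the differences of the claudins was not tested.

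The partners of claudins at the junction and the other lists of junction biology gave no call in the limma fit. Over all genes, 13.9% had an unadjusted p under 0.05 (8.29% higher and 5.56% lower in knockouts). The groups did not overlap for 2.60% of all genes, and for 1.64% with the knockouts higher. Of 36 genes of tight junction scaffolds, occludin-like proteins, adhesion molecules and polarity proteins, 34 were measured, and 0 passed in either direction or had an unadjusted p under 0.05, with 10 positive and 24 negative differences and a median of -0.05. The smallest p-values belonged to Ildr1, an angulin of tricellular junctions, at -0.21 (SE 0.10, limma adjusted p = 0.376), the polarity scaffold Patj at -0.20 (SE 0.10, limma adjusted p = 0.4172) and Amotl2 at -0.20 (SE 0.11, limma adjusted p = 0.4254). Tjp1, the scaffold ZO-1 that binds the tails of claudins, was at -0.07 (SE 0.09), and occludin (Ocln) was at -0.04 (SE 0.08). Epcam, a partner of claudin-7, had mean log2 intensities of 11.93 ± 0.11 in knockouts and 11.90 ± 0.10 in controls (SD over n = 5 arrays each).

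Of 20 genes of the adherens junction and desmosome, 0 were called and 1 had an unadjusted p under 0.05 (higher in knockouts), with a median of 0.003. The desmosomal plaque gene Pkp2 read between 8.65 and 8.97 in knockouts and between 8.25 and 8.64 in controls, so its groups did not overlap, and its difference was 0.40 (SE 0.10, limma adjusted p = 0.1475). Desmoplakin (Dsp) was at -0.18 (SE 0.09) and Nectin4 at 0.14 (SE 0.09).

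Of 21 measured genes for junctional myosin, cytokines and kinases, 0 were called, with a median of -0.01. At an unadjusted p under 0.05 there were 3 (2 higher, 1 lower in knockouts), against 13.9% of all genes. The interferon gamma receptor chain Ifngr1 was at 11.15 ± 0.06 in knockouts and 10.95 ± 0.05 in controls (SD over n = 5 arrays each), a difference of 0.21 (SE 0.07, limma adjusted p = 0.2298), without overlap of the groups. The kinase Stk39 was at 0.31 (SE 0.12) and the interleukin-22 receptor chain Il22ra1 at -0.32 (SE 0.13). Il13, whose product is known to raise claudin-2 in epithelium, was at -0.05 (SE 0.12).

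Of 21 measured epithelial transcription factors, 0 were called or had an unadjusted p under 0.05, with a median of 0.00. Ehf was at 0.40 (SE 0.24), Snai1 at 0.16 (SE 0.10) and Klf5 at -0.14 (SE 0.09). Cdx2 was at -0.09 (SE 0.15) and Hnf4a at 0.05 (SE 0.10).

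A further list held 13 genes for membrane or secreted proteases, some of which can cleave junction proteins, and for protease inhibitors. Of these, 0 were called, with a median of 0.00. At an unadjusted p under 0.05 there were 3, all higher in knockouts, against 8.29% of all genes in that direction. Prostasin (Prss8) was at 8.19 ± 0.26 in knockouts and 7.78 ± 0.12 in controls (SD over n = 5 arrays each), a difference of 0.41 (SE 0.12, limma adjusted p = 0.1894), and its groups overlapped. Without knockout 2 it was at 0.50 (SE 0.11, limma adjusted p = 0.04979) and was then the 1 called gene of that list. Adam10 was at 0.21 (SE 0.09), without overlap of the groups (9.75 to 10.09 in knockouts, 9.6 to 9.7 in controls), and Mmp9 at 0.63 (SE 0.27).

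Of 10 genes of calcium absorption, 0 were called or had an unadjusted p under 0.05, and 9 had negative differences, with a median of -0.13. The calcium-binding protein S100g ranged from 5.95 to 8.27 in knockouts and from 6.84 to 9.8 in controls, a difference of -1.17 (SE 0.63, limma adjusted p = 0.4398). Calbindin (Calb1) was at -0.21 (SE 0.10) and the calcium pump Atp2b1 at -0.22 (SE 0.11). Calb1 had a mean log2 intensity of 3.96, below the array medians of 5.77 to 5.89. Trpv5, Trpv6, Cyp24a1, Cyp27b1, Casr and Slc8a1 of this list also read below them. Vdr, whose readings followed those of Cldn15, was at -0.05 (SE 0.10).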

How the data were processed

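RNA of 10 jejunum samples was hybridised to 1 array each. Per the submitters' processing notes, the authors ran RMA (Affymetrix Expression Console, version 1.4.1.46), and the values were deposited as intensity on a linear scale (1.88 to 15500.21). RMA corrects background, equalises arrays and summarises probes. The build behind the probe sets is not given in the sources used here. No detection values were used. Precision is limited by having 10 arrays.

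Log2 was taken of each value. Of 34472 probe sets, 23521 had 1 gene symbol, 1814 several and 9137 none in the platform annotation. Only the first kind was used, and 23328 of them matched RefSeq by gene ID. The probe set with the highest mean stood for a gene (22180 genes). Groups follow the titles. The comparison used lmFit and eBayes (two-sided) of limma 3.58.1, run in R 4.3.3, with Benjamini-Hochberg adjustment over all genes, called under 0.05. Differences are knockout minus control. The labels do not state that each sample is a separate mouse, and the spread behind the p-values may therefore be technical. The 9 members and all lists were chosen with earlier results of these data known.

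Gene lists held 362 entries in 22 lists, of which 343 were measured. The naming rule took the 9 members, all other claudins, Pcyt1a, the called genes and the 3 smallest p-values of each pathway list, and the 3 most similar genes per member. Tjp1, Ocln, Epcam, Il13, Cdx2, Hnf4a and, as a calcium gene, Vdr were named for their role after values were seen. Correlations used values relative to the group mean, and permutations were all 14400 rearrangements within the groups (two-sided). For r without 2 arrays, group means were taken again. The promoter windows of 7 of the 9 members came from RefSeq. A planned comparison of proteins was not made. Scripts were tested on simulated data, for the limma fit with independent noise for each gene. That setting lacks the shifts that many genes share on an array here, so it does not vouch for the calls. Alternatives covered scaling, filters on dim genes, probe sets, variance model, array weights, covariates and each array left out.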

Additional observations from a re-analysis of the deposited data

How the results depend on the processing

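With 25 alternatives, of which 4 were chosen after seeing the data, the difference of Cldn2 stayed positive in all 24 that measured it (0.54 to 1.18), and those of Cldn4 (-0.61 to 0.04) and Cldn15 (-0.26 to 0.16) kept their sign in 24 of 25, the cell cycle covariate being the exception for both. The signs of Cldn12, Cldn7 and Cldn23 held in all 25, while Cldn1, Cldn3 and Cldn8 went either way. As a description, since the members were chosen on these differences, the number of claudins called was 1, Cldn2, with array weights, with the Paneth, smooth muscle or crypt stem cell score as a covariate and without knockout 2, and 0 in all others (0 to 1 with an array left out). The other claudins and the lists kept 0 calls, except 1 membrane protease (Prss8) without knockout 2 (0 to 1 with an array left out). Over all genes, 6 were called, against 2 with median centring, with quantile normalisation, without the 3 arrays highest in smooth muscle (controls 7 and 9, knockout 1) and with the villus tip covariate, 3 with centring on pan-epithelium, 1 with the cell cycle covariate and 292 with the Paneth covariate. The count was 4 with array weights and 4 with the smooth muscle covariate. With 1 array left out the count was 2 to 452. It was 452 without knockout 2, 2 without knockout 1, knockout 3, or control 6, 7, 8 or 9, and 3 without control 10. The median r between claudins was 0.09, against 0.19 with median centring, -0.0153 without the 3 smooth muscle arrays and -0.0112 to 0.22 with an array left out. Centring on pan-epithelium subtracts that score from every gene, so an r with the score itself has no meaning there. It took the r of Cldn7 with Cldn8 to -0.11, against 0.77, and that of Cldn2 with Cldn15 to -0.12, against -0.69. The part of tissue makeup in these shifts was not tested. Genes under a mean log2 intensity of 5, Cldn1 and Cldn8 among them, drop out under a filter at 5, and Cldn2 under 6. No paired analysis was possible because the groups share no replicate numbers.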
